A study of Mus musculus with 51 samples.

Results

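The data described here are the RNA-seq of 6 mouse embryonic stem cell (mESC) lines kept in 2i + LIF medium, 3 lines wild-type for Smchd1 function (wt, genotype Smchd1 fl/+) and 3 lines with the maternal allele deleted (mat del, genotype Smchd1 del/+). They were taken by their sample labels, and are 6 of the 51 samples of the series. All 6 lines were male, came from separate blastocysts of C57BL/6 mothers and Castaneus (Cast) fathers, and carried an intact paternal Smchd1 allele. In mat del lines the maternal allele had been removed in the oocyte by Zp3-Cre, a recombinase driven by an oocyte promoter, so that the embryo started without maternal SMCHD1 and the line was heterozygous afterwards. The wt lines carried a floxed maternal allele that was not deleted. Since mat del lines differ from wt lines both in oocyte history and in having 1 working allele, these cannot be told apart here. Each line is 1 library, and the spread between lines is the only replicate error available.

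SMCHD1 is a noncanonical SMC protein that keeps genes silent on the inactive X chromosome, at some imprinted regions and at clustered gene families. 2i + LIF medium holds mESCs in the ground state of pluripotency: 1 inhibitor blocks MEK and so ERK signalling, another blocks GSK3 and so turns on Wnt signalling, and leukaemia inhibitory factor (LIF) acts through STAT3. Ground-state cells express naive factors such as Nanog, Klf4 and Esrrb, have little de novo DNA methyltransferase and hold lineage genes at low levels. The comparison asks whether lines that started without maternal SMCHD1 have another transcriptome in this state, before any differentiation.

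The deposited values are read counts per gene. Levels below are counts scaled to a common library size (CPM, with TMM factors) of the libraries, and levels compared between genes are CPM per kb of exon. A gene was called higher in mat del when all 3 mat del lines lay above all 3 wt lines, and lower in the reverse case. Of the 17696 genes that passed the expression filter, 831 were higher (4.70%) and 828 were lower (4.68%). With edgeR's quasi-likelihood test and Benjamini-Hochberg adjustment, 0 of 17696 genes (0%) had an adjusted p under 0.05, and 397 (2.24%) had an unadjusted p under 0.05. The other tools run gave 0 genes with DESeq2 (460 at an unadjusted p under 0.05), 0 with limma-voom (356) and 2 with edgeR's exact test (462), the 2 being Gemin5 and Magel2. With the line number as a block, the quasi-likelihood test gave 0 genes after adjustment and 730 at an unadjusted p under 0.05. The single-gene differences below are therefore values beside the spread of 3 lines, and "higher" and "lower" refer to the order of the lines and not to a call by the test.

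Line 3 of each genotype stood apart from the other libraries. The first principal component of log2 CPM, with 48.2% of the variance, placed lines 1 and 2 of both genotypes between -30.5 and -22.0, wt line 3 at 27.4 and mat del line 3 at 70.0. Correlations of log2 CPM across the 17696 genes ran from 0.9885 to 0.9954 among lines 1 and 2 and from 0.9688 to 0.9822 for every pair with a line 3 library. The mean distance between lines of different genotypes was 77.05 and that between lines of 1 genotype was 80.73, which leaves -3.68 (p = 0.8 in a two-sided permutation test that was exact, where 3 against 3 lines cannot go below 0.1). Lines of 1 genotype were thus, on average, slightly farther from each other than from lines of the other. Total counts ran from 27526359 (wt line 1) to 126716460 (wt line 2), and both line 3 libraries lay between.

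Deviations of the line 3 libraries differed with base composition, most clearly among GC-rich genes. In the 1335 genes of the highest decile of transcript GC content (58.1% to 76.3%), the median deviation from the mean of the 6 lines was -0.13 on the log2 scale in wt line 3 and -0.33 in mat del line 3, against 0.09 in wt lines 1 and 2, 0.18 in mat del line 1 and 0.11 in mat del line 2. In the second lowest decile, with a median GC content of 42.9%, it was 0.13 in mat del line 3 and -0.09 in mat del line 1. In the lowest decile (median 39.6%) it was 0.046 in mat del line 3, 0.044 in wt line 3 and -0.105 in mat del line 1. From the second to the ninth decile, wt line 3 stayed between -0.018 and 0.017. GC-rich genes were thus low in both line 3 libraries, most in mat del line 3, and high in mat del line 1. The genes called higher had a median GC content of 51.4%, those called lower 46.8% and all tested genes 49.9%, and the part of base composition in these calls was not tested.

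**Figure D1:**
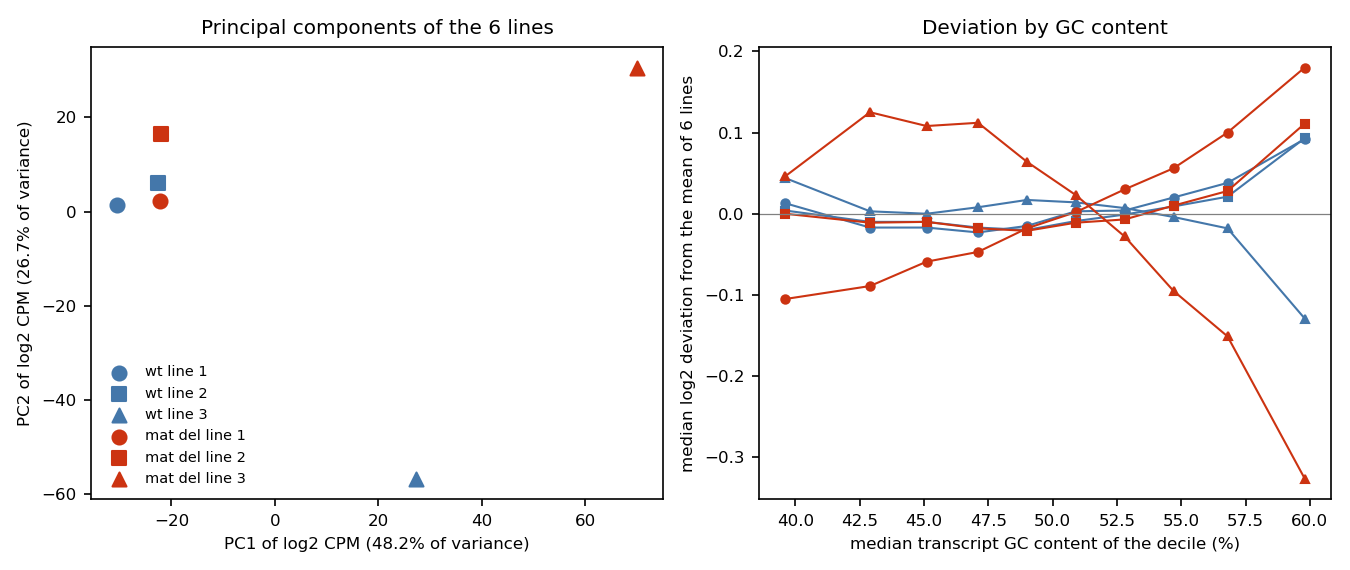
Left, the first and second principal components of log2 CPM of the 6 lines (arbitrary units, with the percentage of variance on each axis), where lines 1 and 2 of both genotypes lie together at the left and the line 3 libraries lie at 27.4 and 70.0 on the first. Right, the median log2 deviation of each line from the mean of the 6 lines in deciles of transcript GC content (%), which falls to -0.33 in mat del line 3 at the highest decile.

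Both line 3 libraries also held transcripts of placental gene families. These families, which were chosen after their values were seen, are the prolactin-like genes of trophoblast giant cells and spongiotrophoblast, the pregnancy-specific glycoproteins (Psg), placental cathepsins, placental Ceacam genes and Tpbpa and Tpbpb, markers of the spongiotrophoblast. Tpbpa had 0 counts in lines 1 and 2 of both genotypes, 367 counts (7.70 CPM) in wt line 3 and 938 counts (26.9 CPM) in mat del line 3. Prl3b1, a placental lactogen, was at 8.54 CPM in wt line 3 and 25.2 CPM in mat del line 3, and Psg21 was at 4.07 and 19.7 CPM, with 0 in the other 4 lines. Summed over the 56 family members in the table, the level was 0.036, 0.154 and 74.9 CPM in wt lines 1 to 3 and 0.141, 0.0738 and 288 CPM in mat del lines 1 to 3. All 32 members at 1 CPM or more in mat del line 3 lay, in both line 3 libraries, above every library of lines 1 and 2. These 32 were picked by their level in mat del line 3, which largely sets that order. Of all 45 members with a count in any line, 1, 4 and 38 were detected in wt lines 1 to 3. In mat del lines 1 to 3, 2, 2 and 43 were detected. Across the 34 members at 0.1 CPM or more in both, the ratio of mat del line 3 to wt line 3 ran from 1.09 to 12.29 with a median of 3.86. With library totals alone as the scale, the summed families had a median of 8.34 CPM in the 45 libraries of the differentiation time course. The highest value there was 277 CPM, beside 273 CPM as the highest of the lines described here. Of the 45, 7 lay below all of these lines and 1 above. In bulk RNA, more cells of a type and more RNA per cell cannot be told apart. Whether the placental transcripts came from cells of these lines was not tested, nor was their part in the differences between genotypes.

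Cdx2 and Elf5, factors of trophoblast stem cells, had at most 17 counts in any line. Cdx2 had 0, 17 and 0 counts in wt lines 1 to 3 and 8, 16 and 3 in mat del lines 1 to 3. Elf5 had 1, 3 and 0 counts and 2, 2 and 0 counts. With 0 and 3 counts of Cdx2 and 0 and 0 of Elf5 in the line 3 libraries, neither rose there as the placental genes did. At such counts, in libraries of unlike depth, smaller differences cannot be read. The wider list of 14 trophoblast markers summed to 182.4, 188.8 and 180.2 CPM in wt and 187.6, 196.5 and 209.5 CPM in mat del lines. Haemoglobin genes, which mark red blood cells, summed to 0, 0.0308 and 2.54 CPM in wt and 0.0911, 0.0738 and 9.34 CPM in mat del lines. Igf2, an imprinted growth factor gene that is abundant in placenta, was at 0.396, 0.538 and 3.71 CPM in wt and at 0.547, 0.304 and 10.4 CPM in mat del lines, and H19 was at 6.70, 4.43 and 17.8 CPM and at 8.28, 8.23 and 33.6 CPM. Igf2 and H19 thus differed between line numbers and overlapped between genotypes, although H19 was higher in mat del within each line number. Over all tested genes, mat del was the higher within every line number for 15.5% and the lower for 16.6%. The labels do not pair lines of the same number, so such an order, here and below, only describes the values. Results are given below with all lines and, where it matters, without line 3 of both genotypes, a comparison of 2 against 2 lines that was added after the data were seen.

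**Figure D2:**
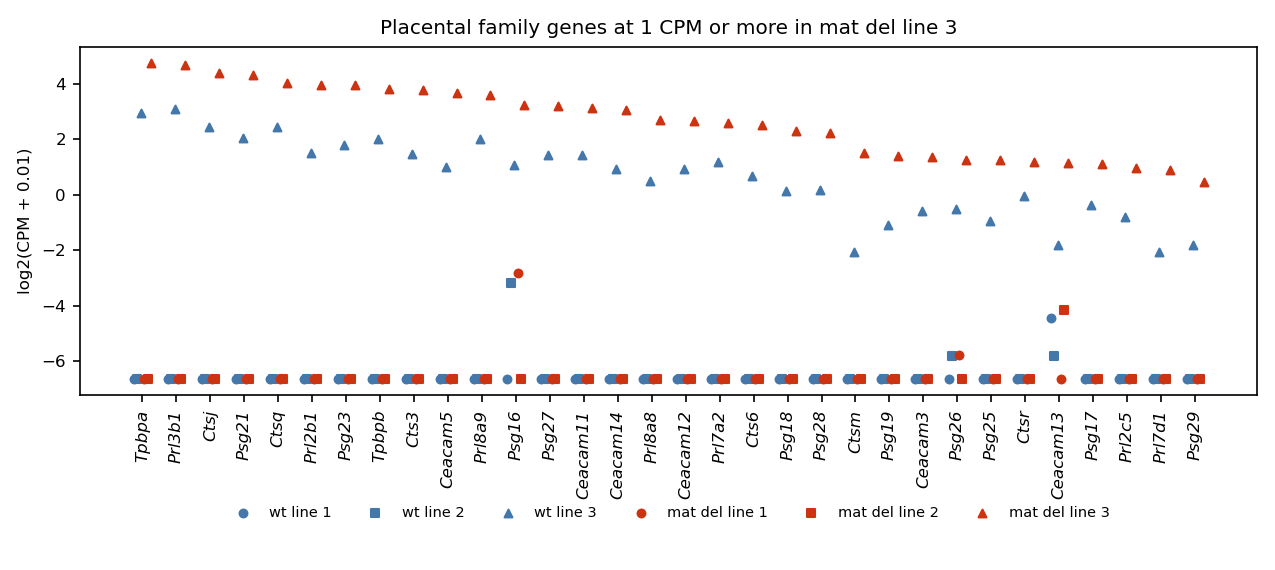
Level of the placental family genes at 1 CPM or more in mat del line 3, as log2(CPM + 0.01) on the vertical axis, with 1 point per line (circles line 1, squares line 2, triangles line 3, blue wt, red mat del). The triangles stand above all other points for every gene shown, and the red triangle, up to 26.9 CPM for Tpbpa, stands above the blue one.

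Smchd1 (ENSMUSG00000024054, chromosome 17, 71344489 to 71475343 of GRCm38, minus strand) was at 107, 124 and 119 CPM in wt lines 1 to 3 and at 63.7, 72.0 and 90.7 CPM in mat del lines 1 to 3. Every mat del line lay below every wt line, and mat del line 3 was the nearest to wt. The means were 117 ± 8.71 CPM (SD, n = 3) and 75.5 ± 13.8 CPM (SD, n = 3), a log2 fold change of -0.63 (SE 0.14, adjusted p = 0.992, edgeR quasi-likelihood test). Without line 3 of both genotypes it was -0.77 (SE 0.09) with an adjusted p = 0.0296 in the same edgeR test. The count covers all exons, so it does not separate the maternal from the paternal allele. The order of the lines follows the genotype labels.

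Without line 3, 3 of 18444 genes (0.0163%) had an adjusted p under 0.05, namely Gemin5, Smchd1 and Xlr3c, all of them lower in mat del. In that comparison both mat del lines lay above both wt lines for 17.0% of genes and below them for 17.3%. Of the 397 genes with an unadjusted p under 0.05 over the 6 lines, 219 also had one without line 3.

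Gemin5 (ENSMUSG00000037275, chromosome 11, 58120002 to 58168539, minus strand) encodes the subunit of the SMN complex that recognises small nuclear RNAs for assembly into spliceosomal particles. It was at 132, 131 and 134 CPM in wt lines 1 to 3 and at 80.4, 79.0 and 97.3 CPM in mat del lines 1 to 3. The wt lines lay within 3 CPM of each other, the mat del lines were all lower, and again mat del line 3 was the nearest to wt. The log2 fold change was -0.63 (SE 0.11, unadjusted p = 0.000428 and adjusted p = 0.992, edgeR quasi-likelihood test), and -0.72 (SE 0.07) without line 3, where the adjusted p from edgeR was 0.00858. No 75-base stretch of its annotated transcripts is shared with a transcript of another gene (0%).

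The SMN complex was also looked at as a list. Of 11 genes tested (Smn1, the Gemin genes, Ddx20 and the associated Strap, Coil and Phax), 0 were higher and 2 lower (18.2%, beside 4.68% of all genes), and without line 3, 5 were lower and 1 higher, beside 17.3% and 17.0% of all genes. Over the 6 lines their median log2 fold change was -0.09, against -0.01 over all genes tested. Gemin5 itself is 1 of the 2 lower genes, so the share is no test of the list. The second lower gene was Ddx20, the helicase Gemin3, at 70.3, 69.6 and 68.1 CPM in wt and 67.8, 66.1 and 67.7 CPM in mat del lines (unadjusted p = 0.63, edgeR quasi-likelihood test). Smn1, which holds the complex together, was at 66.7, 61.3 and 72.2 CPM in wt and 63.9, 57.7 and 66.5 CPM in mat del lines. It overlapped but was lower within each line number, as were 16.6% of all genes.

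The Xlr3, Xlr4 and Xlr5 genes form a cluster on the X chromosome (73074345 to 73292976) whose members share part of their sequence. They are related to the synaptonemal complex gene Sycp3 and include genes that are imprinted in mouse brain. They were looked at as a family after 3 of them appeared among the genes with the lowest p. Promoters of the 4 members whose lines did not overlap are shown first, because SMCHD1 has been linked to CG methylation of promoters and the members differ in how many CG dinucleotides they hold. Each sequence is from RefSeq on GRCm38.p6, runs from 250 bases before to 50 bases after the annotated start, 5′ to 3′ on the gene's strand, and has CG dinucleotides in capitals. Xlr3c lies at chrX:73265341-73265640 (minus strand), Xlr4a at chrX:73082458-73082757 (minus), Xlr4b at chrX:73214083-73214382 (plus) and Xlr5c at chrX:73290466-73290765 (minus).
Xlr3c: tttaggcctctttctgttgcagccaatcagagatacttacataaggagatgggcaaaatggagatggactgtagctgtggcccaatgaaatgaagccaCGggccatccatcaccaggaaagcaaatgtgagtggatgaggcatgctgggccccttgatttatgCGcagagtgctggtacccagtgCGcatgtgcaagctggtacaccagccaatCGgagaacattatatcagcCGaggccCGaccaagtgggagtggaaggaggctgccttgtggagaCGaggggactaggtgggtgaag
Xlr4a: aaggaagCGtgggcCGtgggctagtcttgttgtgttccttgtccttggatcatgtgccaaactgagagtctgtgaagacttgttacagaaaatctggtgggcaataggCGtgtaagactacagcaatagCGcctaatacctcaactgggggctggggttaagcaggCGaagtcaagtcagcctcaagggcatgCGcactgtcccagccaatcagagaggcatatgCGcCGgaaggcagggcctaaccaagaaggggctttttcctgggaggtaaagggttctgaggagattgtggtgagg
Xlr4b: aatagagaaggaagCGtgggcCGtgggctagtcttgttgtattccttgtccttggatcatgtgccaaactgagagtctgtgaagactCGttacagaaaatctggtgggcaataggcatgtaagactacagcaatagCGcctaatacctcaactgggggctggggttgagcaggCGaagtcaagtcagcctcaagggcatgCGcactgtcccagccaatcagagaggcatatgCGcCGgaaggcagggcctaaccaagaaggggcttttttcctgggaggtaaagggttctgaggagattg
Xlr5c: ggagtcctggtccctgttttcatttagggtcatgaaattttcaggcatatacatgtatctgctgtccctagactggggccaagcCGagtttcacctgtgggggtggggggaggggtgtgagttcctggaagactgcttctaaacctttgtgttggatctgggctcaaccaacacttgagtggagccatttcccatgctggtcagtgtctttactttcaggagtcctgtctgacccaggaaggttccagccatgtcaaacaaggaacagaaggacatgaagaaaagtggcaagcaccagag
The letters CG occurred 7 times in the Xlr3c promoter, 8 times in each of Xlr4a and Xlr4b and 1 time in Xlr5c. In the promoters of the 5 members whose lines overlapped they occurred 5 times (Xlr3a), 7 times (Xlr3b and Xlr4c) and 16 times (Xlr5a and Xlr5b). The start used for Xlr5c lies 2461 bases inside the gene as the count table bounds it, and that for Xlr5a 175274 bases inside, so these counts depend on the annotation, while the other starts differ by at most 45 bases. Across 32851 promoters of 300 bases the median was 7, and 51.4%, 54.2%, 54.2% and 14.1% of promoters held as many or fewer. The Xlr4a and Xlr4b promoters matched at 269 of 300 bases at the best shift of up to 30 bases (89.7%), while the other pairs matched at 88 to 97 bases. CG reads the same on both strands, and no methylation was measured here.

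Xlr3c was at 45.8, 49.0 and 33.8 CPM in wt lines 1 to 3 and at 29.6, 30.3 and 26.4 CPM in mat del lines 1 to 3. Xlr5c was at 9.44, 12.3 and 10.3 CPM in wt and 6.36, 6.23 and 6.85 CPM in mat del lines. Xlr4b was at 10.6, 9.69 and 7.45 CPM in wt and 5.70, 5.48 and 4.67 CPM in mat del lines, and Xlr4a at 9.26, 9.02 and 6.67 CPM and at 5.35, 5.73 and 4.96 CPM. In each of these 4 genes the mat del lines lay close together and below all wt lines, and in 3 of them wt line 3 was the lowest wt line. Log2 fold changes were -0.57 (SE 0.15) for Xlr3c, -0.72 (SE 0.16) for Xlr5c, -0.80 (SE 0.19) for Xlr4b and -0.64 (SE 0.18) for Xlr4a, each with an adjusted p = 0.992 in edgeR's test.

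The remaining 5 members overlapped between genotypes, through wt line 3 or mat del line 3. Xlr5b was at 7.92, 11.7 and 4.39 CPM in wt and 4.65, 4.38 and 2.15 CPM in mat del lines. Xlr5a was at 7.89, 10.3 and 4.74 CPM and at 4.78, 4.19 and 5.10 CPM, and Xlr3a at 70.6, 69.1 and 56.7 CPM and at 53.3, 52.3 and 65.5 CPM. Xlr3b and Xlr4c had log2 fold changes of -0.18 and -0.73. All 9 members had a negative log2 fold change, 4 of 9 (44.4%) were lower against 4.68% of all genes, and the median was -0.71. Without line 3, 9 of 9 were lower against 17.3% of all genes, with a median of -0.77 and an adjusted p = 0.0296 for Xlr3c alone. Both counts include Xlr3c, Xlr4b and Xlr5c, whose low p led to the family, so neither share is a test of it. Of the 75-base stretches of their transcripts, between 33.0% (Xlr3a) and 86.1% (Xlr5b) also occur in transcripts of other genes, so the 9 genes are not 9 independent measurements and a count may belong to a neighbour.

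**Figure D3:**
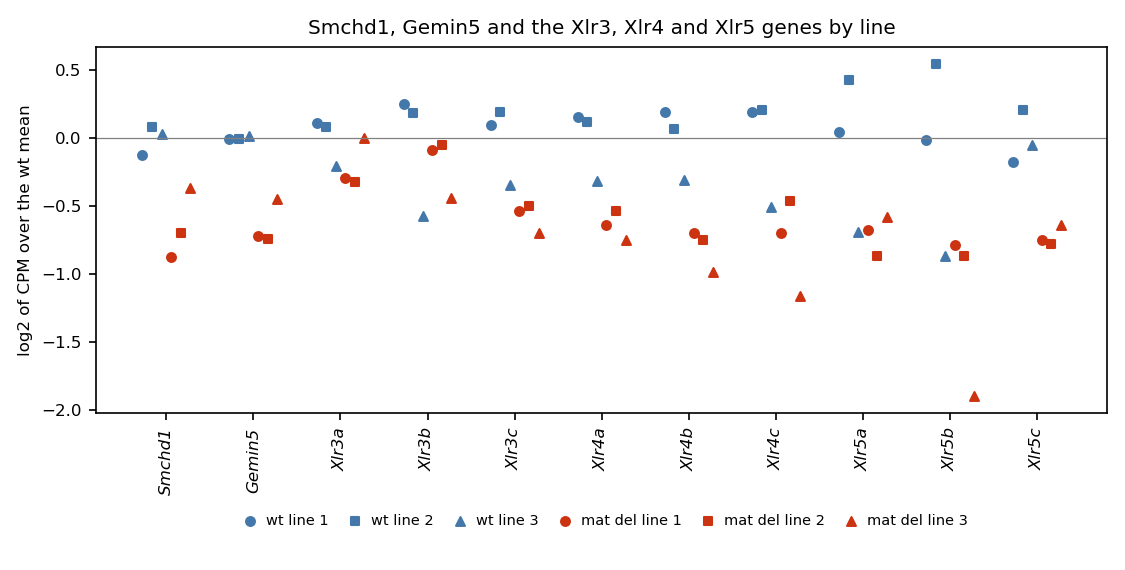
Level in each line of Smchd1, Gemin5 and the 9 Xlr3, Xlr4 and Xlr5 genes, as log2 of CPM over the mean of the wt lines (vertical axis, blue wt, red mat del, circles line 1, squares line 2, triangles line 3). Lines 1 and 2 of mat del lie below lines 1 and 2 of wt in every gene, and the triangles of line 3 are the points that cross.

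Of the 14 tested genes between 73064787 and 73292976, 9 are these Xlr genes. The other 5 all overlapped between genotypes, and 4 of them (Gm14685, DXBay18, Spin2d and F8a) had a negative log2 fold change, Pnma3 being the exception. Over the X chromosome as a whole, the median log2 deviation of 455 genes ran from -0.04 in mat del line 1 to 0.06 in wt line 3. Xist, the RNA that coats the inactive X in female cells, was low in all of these male lines, at 5.83, 4.38 and 6.15 CPM in wt and 4.22, 3.39 and 5.04 CPM in mat del lines. It overlapped but was lower in mat del within each line number, as were 16.6% of all genes.

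The ground-state factors were abundant in every line. Among the 20 naive factors Nanog had the highest level per length, 361 CPM per kb, followed by Dppa3 (139), Zfp42, also called Rex1 (116), and Esrrb (93.2). Among the 12 core factors, Dppa5a stood at 3026 CPM per kb, in the 10 highest of all genes, Pou5f1 (Oct4) at 375, Tdgf1 at 362 and Sox2 at 210 CPM per kb. Nanog was at 895, 780 and 681 CPM in wt and 816, 814 and 865 CPM in mat del lines, and Pou5f1 at 850, 776 and 1060 CPM and at 864, 776 and 735 CPM, so both overlapped. Summed over the naive factors, levels were 4578, 4331 and 4536 CPM in wt and 4620, 4508 and 4981 CPM in mat del lines. They overlapped, but mat del was the higher within each line number, as it was for 15.5% of single genes.

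Of the 20 naive factors, 3 were higher (15%) and 1 was lower (5%), beside 4.70% and 4.68% of all genes, the list having a median of 0.01 (log2 fold change), and of the 12 core factors 0 were higher and 0 lower, with a median of -0.06. Klf4, a Krüppel-like factor that LIF keeps on, was at 118, 126 and 108 CPM in wt lines 1 to 3 and at 145, 145 and 146 CPM in mat del lines 1 to 3. The mat del lines were nearly equal and all above wt, a log2 fold change of 0.31 (SE 0.10), and 0.24 without line 3. Prdm14, which represses DNA methyltransferases and FGF signalling genes, was at 68.9, 71.2 and 50.9 CPM and at 74.3, 82.4 and 87.0 CPM. Tbx3 was at 92.3, 96.5 and 86.2 CPM and at 105, 99.1 and 124 CPM. The log2 fold changes were 0.35 (SE 0.15) for Prdm14 and 0.25 (SE 0.12) for Tbx3. The lower gene, Fbxo15, was at 299, 322 and 300 CPM and at 291, 296 and 288 CPM.

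Among 11 tested LIF and STAT3 genes, 2 were higher (18.2%, beside 4.70% of all genes) and 0 lower, with a median of 0.09. Besides Klf4 these were Pim1, a kinase gene induced by STAT3, at 175, 164 and 157 CPM in wt and 188, 207 and 213 CPM in mat del lines. Socs3, the feedback inhibitor of the pathway, was at 116, 105 and 112 CPM and at 130, 118 and 102 CPM and overlapped, as did Stat3 at 86.8, 96.2 and 90.7 CPM and 91.3, 89.3 and 85.6 CPM. Of 14 ERK target genes, 0 were higher and 0 lower (median -0.05), and of 12 Wnt target genes 1 was higher (T) and 0 were lower (median 0.03).

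Of 15 tested markers of the next, formative step of pluripotency, 3 were lower (20%, beside 4.68% of all genes) and 0 higher, and the median was -0.07. Without line 3, 3 of the 15 were lower and 2 higher, where 17.3% and 17.0% of all genes were so. Dnmt3b, a de novo DNA methyltransferase, was at 40.1, 44.8 and 79.1 CPM in wt lines and at 37.9, 28.7 and 34.5 CPM in mat del lines. Wt line 3 stood well above the other wt lines, and the log2 fold change of -0.70 (SE 0.25) became -0.36 without line 3. Lefty2, a NODAL antagonist, was at 123, 133 and 142 CPM and at 122, 82.1 and 82.1 CPM, and Nodal itself at 53.2, 50.8 and 57.9 CPM and at 50.7, 43.5 and 39.8 CPM. In both genes mat del line 1 lay just below the lowest wt line. Fgf5, a defining marker of primed cells, was below 1.6 CPM in every line, and Otx2 overlapped at 36.7, 30.1 and 25.4 CPM and 32.8, 35.3 and 30.1 CPM.

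**Figure D4:**
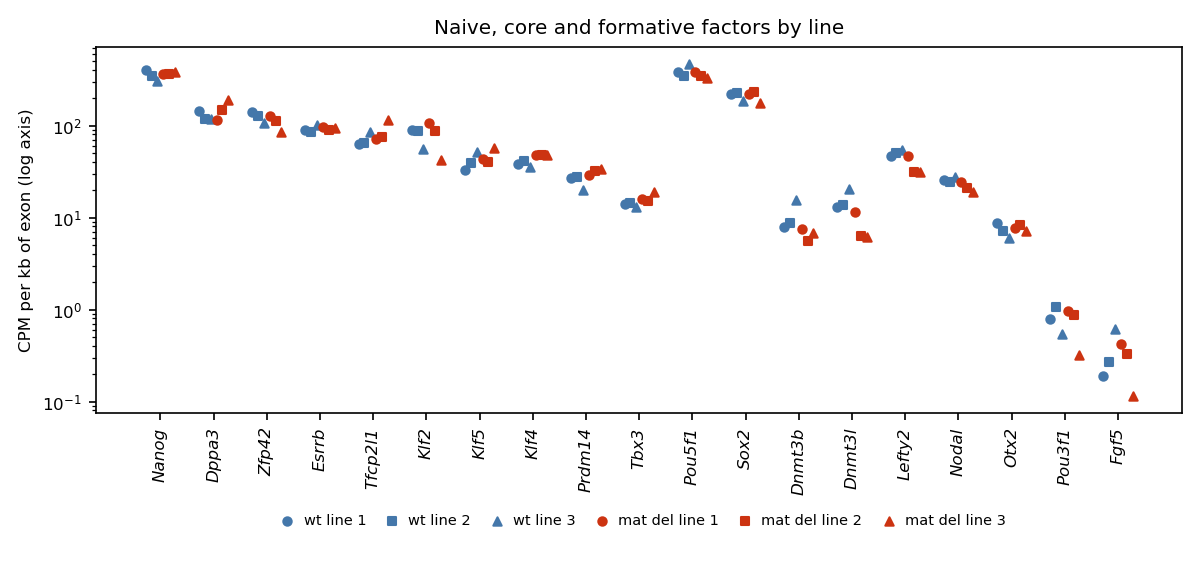
Level per length (CPM per kb of exon, log axis) of naive, core and formative factors in each line, blue wt and red mat del, with line numbers as circles, squares and triangles. Nanog, Pou5f1 and Sox2 lie above 100 CPM per kb in all lines, while Fgf5 lies below 1, and the points of the genotypes are mixed for most genes.

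Dnmt3l, the inactive partner that stimulates de novo methyltransferases, was at 38.8, 40.6 and 61.5 CPM in wt lines and at 34.1, 18.8 and 18.2 CPM in mat del lines. Its log2 fold change was -0.98 (SE 0.28, unadjusted p = 0.00806 and adjusted p = 0.992, edgeR quasi-likelihood test), and -0.58 without line 3. Tet2, which oxidises methylcytosine, was at 78.8, 77.1 and 66.8 CPM in wt and at 88.1, 88.2 and 121 CPM in mat del lines. These and Dnmt3b were the 3 genes whose lines did not overlap among 32 DNA methylation and heterochromatin genes. Of the 32, 1 was higher (3.12%) and 2 were lower (6.25%), beside 4.70% and 4.68% of all genes, with a median of 0.04. Dnmt1, the maintenance enzyme, was at 442, 487 and 559 CPM and at 472, 502 and 646 CPM, and Uhrf1, its partner, at 769, 820 and 1180 CPM and at 795, 805 and 997 CPM. Both overlapped, and Dnmt1 was higher in mat del within each line number, as were 15.5% of all genes. Germline genes that DNA methylation silences in somatic cells included abundant transcripts, Dazl being at 546, 665 and 253 CPM in wt and 388, 673 and 445 CPM in mat del lines. Of 28 tested, 2 were higher (7.14%, Tuba3a and Tuba3b) and 0 lower. The median was 0.08, and turned to -0.08 without line 3.

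Among imprinted genes, most overlapped. Of 48 canonical imprinted genes tested, 3 were higher (6.25%) and 4 lower (8.33%), with a median of 0.01, beside 4.70% and 4.68% of all genes. The higher genes were Magel2, Peg12 and Trappc9, and the lower ones Ascl2, Cdkn1c, Commd1 and Dio3. Magel2 and Peg12 are paternally expressed genes of the Prader-Willi cluster on chromosome 7, a region that SMCHD1 is known to repress. Magel2 had 0, 1 and 1 counts in wt lines and 17, 19 and 15 counts in mat del lines, 2 against 51 counts in all, which at these depths is a ratio of 19.9 (exact 95% interval 5.2 to 168.4, for counting error only). Its level stayed at or under 0.430 CPM, and it passed the filter through the mat del lines. Magel2 was also named from earlier results of these data. The interval pools the reads of the lines and leaves out the spread between them, so it is no test of the genotypes. Peg12 was at 14.98, 12.99 and 7.81 CPM in wt and at 17.4, 19.103 and 18.2 CPM in mat del lines, a log2 fold change of 0.62 (SE 0.23).

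In the rest of that cluster the genotypes overlapped. Of 14 tested Prader-Willi cluster genes, 2 were higher (14.3%) and 0 lower, beside 4.70% and 4.68% of all genes, with a median of 0.11. Magel2, 1 of these 2, passed the filter through the mat del lines and was named from earlier results. The share is therefore no test of the cluster, nor is that of the canonical imprinted genes, which also holds Magel2. Ndn, another paternally expressed gene, was at 7.56, 6.48 and 3.92 CPM in wt and at 9.63, 9.56 and 4.73 CPM in mat del lines. Within line numbers 1, 2 and 3, mat del was the higher in each, as for 15.5% of all genes. Mkrn3 was at 8.10, 6.86 and 4.995 CPM and at 8.16, 8.59 and 3.10 CPM, and Snrpn at 81.5, 74.7 and 71.0 CPM and at 78.0, 96.1 and 71.2 CPM. Among the 19 non-canonical imprinted genes, which depend on maternal H3K27me3 rather than DNA methylation, 0 were higher and 1 lower (median 0.05), the lower one being Myo1a at 3.75, 3.70 and 10.9 CPM and 2.06, 2.27 and 3.21 CPM.

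Zinc finger genes were a family where lower outnumbered higher genes. Of 346 tested genes named Zfp, 12 were higher (3.47%) and 28 lower (8.09%), beside 4.70% and 4.68% of all genes, with a median of 0.02. Of the 28, 6 lie in a cluster of zinc finger genes on chromosome 4 (145510759 to 147848366), many of which encode KRAB repressors of endogenous retroviruses. This cluster was picked after its values were seen. Of its 18 tested Zfp genes, 0 were higher, 6 were lower and 16 had a negative log2 fold change, with a median of -0.31, while the other 328 Zfp genes had 12 higher, 22 lower and a median of 0.03.

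Zfp992, in this cluster, was at 82.0, 71.7 and 99.2 CPM in wt lines and at 52.7, 63.0 and 61.5 CPM in mat del lines. Zfp979 was at 228, 202 and 292 CPM and at 186, 188 and 135 CPM, and Zfp990 at 162, 140 and 218 CPM and at 123, 134 and 129 CPM. In all 3 genes wt line 3 was the highest of the 6 lines and wt line 2 lay just above the highest mat del line. The log2 fold changes were -0.51 (SE 0.14), -0.50 (SE 0.18) and -0.43 (SE 0.16). Summed over the 18 genes, levels were 1210, 1057 and 1639 CPM in wt and 952, 1012 and 1087 CPM in mat del lines, where mat del line 3 overlapped wt line 2. Between 11.6% (Zfp990) and 34.5% (Zfp992) of the 75-base stretches in these 3 genes' transcripts also occur in other genes.

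A smaller zinc finger cluster on chromosome 5 (109674545 to 110094420), also picked after its values were seen, had 6 lower and 1 higher of 10 tested genes, beside 4.68% and 4.70% of all genes, with a median of -0.23. One of the lower genes, Zfp932, was at 20.4, 21.5 and 21.9 CPM in wt and at 18.5, 19.7 and 14.8 CPM in mat del lines, a small difference with each line in order.

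Outside these groups, the 12 higher genes with the lowest unadjusted p and a mean of at least 1 CPM were Camk2n1, Onecut1, Elavl3, Ttyh2, Sik1, Arhgef10, Nuak1, Sema4b, Ceacam1, Csnk1e, Slc15a1 and Rnf157. Camk2n1, an inhibitor of the kinase CaMKII, was at 27.4, 29.8 and 26.7 CPM in wt and 36.4, 39.2 and 38.2 CPM in mat del lines, a log2 fold change of 0.44 (SE 0.10, unadjusted p = 0.00296, edgeR quasi-likelihood test). Sik1, a salt-inducible kinase gene, was at 80.5, 84.7 and 68.2 CPM and at 94.0, 107 and 121 CPM, and Sema4b, a semaphorin, at 52.8, 53.4 and 51.0 CPM and at 66.3, 64.0 and 65.3 CPM. Camk2n1 and Sema4b varied little within a genotype, whereas in Sik1 the gap between genotypes was widest within line 3. Onecut1, a homeobox factor of liver and neurons, had the largest log2 fold change of the 12, 1.496 (SE 0.37), from 1.153, 1.61 and 0.735 CPM to 2.27, 3.22 and 4.64 CPM. Elavl3, a neuronal RNA-binding protein, was at 9.65, 8.54 and 6.86 CPM and at 12.1, 12.98 and 13.2 CPM.

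The lower genes chosen by the same rule included Gemin5, Xlr5c, Trpm3, Pkd2l1, Smchd1, Xlr4b, Terb2, Gm13128, Xlr3c, Slc47a1 and Malat1. Trpm3 and Pkd2l1, cation channels of the TRP family that both lie on chromosome 19, stood side by side in size. Trpm3 was at 1.80, 1.60 and 1.91 CPM in wt and 0.820, 0.922 and 0.888 CPM in mat del lines, and Pkd2l1 at 2.49, 1.96 and 2.27 CPM and at 1.10, 1.03 and 1.23 CPM, log2 fold changes of -1.01 (SE 0.23) and -0.99 (SE 0.22). In both genes the lines of each genotype were close together and the genotypes well apart, line 3 included. Terb2, a meiotic telomere protein, was at 3.93, 4.22 and 4.05 CPM and at 2.34, 2.74 and 2.32 CPM. Malat1, an abundant nuclear RNA, was at 282, 139 and 146 CPM and at 88.6, 107 and 96.4 CPM, where wt line 1 stood far above the others.

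The genes that varied most over the 6 lines differed by line number rather than by genotype in several cases. Gm15564, a noncoding RNA, was at 139, 56.6 and 30.7 CPM in wt and at 94.2, 95.02 and 1.35 CPM in mat del lines. Nrtn, the growth factor neurturin, was at 2.59, 3.02 and 0.273 CPM and at 3.33, 2.98 and 0.115 CPM. Both were lowest in the line 3 libraries and overlapped between genotypes.

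**Figure D5:**
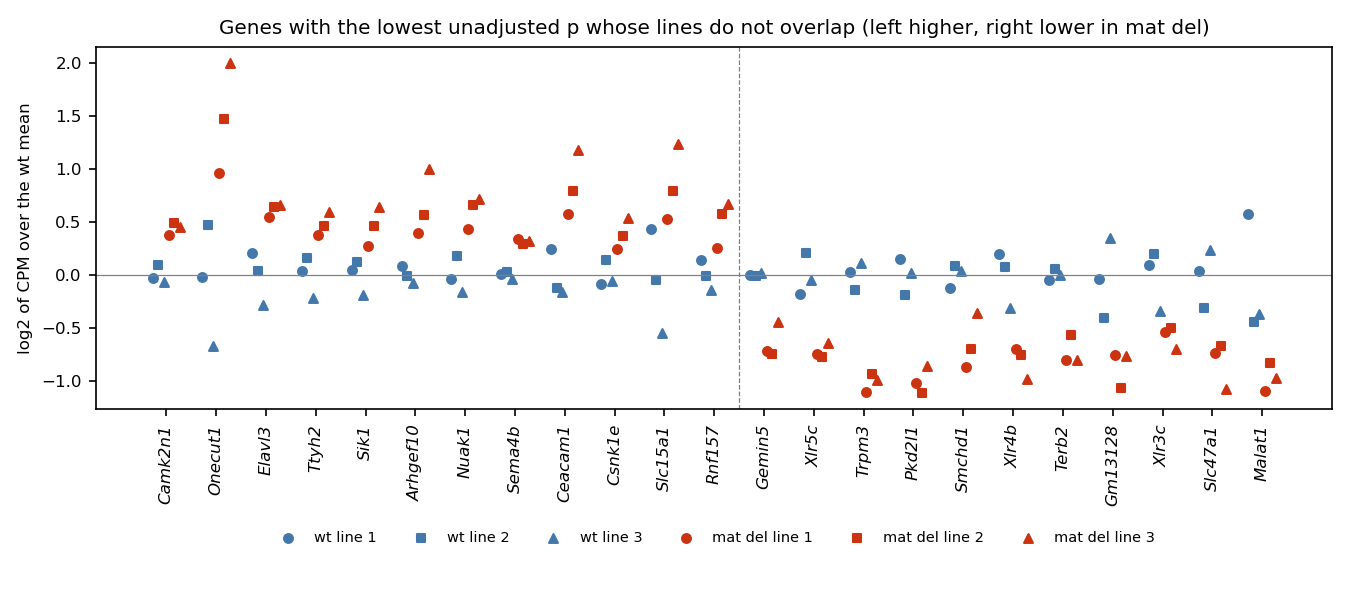
Level in each line of the higher genes (left of the dashed line) and lower genes with the lowest unadjusted p, as log2 of CPM over the mean of the wt lines (vertical axis, blue wt, red mat del, circles line 1, squares line 2, triangles line 3). Onecut1 spreads the most among the higher genes, and Gemin5 has wt points that nearly coincide.

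Lineage markers are given beside 4.70% higher and 4.68% lower of all genes. Of 8 tested mesoderm markers 1 was higher and 0 lower (median 0.14), of 13 endoderm markers 1 and 0 (median 0.25), of 7 trophoblast markers 0 and 1 (median 0.12), and of 5 fibroblast markers 0 and 0 (median -0.04). T, the mesoderm factor brachyury, was at 7.82, 7.86 and 6.15 CPM in wt and at 8.91, 8.80 and 8.77 CPM in mat del lines. Of 7 tested neural markers 3 were higher (42.9%, beside 4.70% of all genes) and 0 lower, with a median of 0.37. These were Nes, the intermediate filament nestin, at 43.9, 46.4 and 33.5 CPM and 49.2, 55.0 and 80.9 CPM, Sox1 at 1.55, 2.27 and 1.87 CPM and 2.60, 2.89 and 2.44 CPM, and Irx3. The neural determinant Pax6 overlapped, at 1.51, 1.23 and 2.08 CPM and 1.62, 2.51 and 2.06 CPM, and the summed level of the list did so too.

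The Hox genes, which pattern the body axis, were low in both genotypes. Summed over the 39 genes, levels were 28.2, 35.95 and 18.97 CPM in wt and 31.7, 36.0 and 28.7 CPM in mat del lines. Over the 24 tested genes the median log2 fold change was 0.25, and became 0.03 without line 3. The next counts stand beside 4.70% higher and 4.68% lower of all genes. Of 35 tested clustered protocadherins, which SMCHD1 is known to regulate, 1 was higher (2.86%) and 0 were lower (median -0.07). Of 43 Polycomb genes 2 were higher (4.65%, Jarid2 and Lcor) and 0 lower (median 0.04). Of 29 genes for SMC proteins and their partners 3 were higher (10.3%) and 1 lower (3.45%), with a median of 0.12, or 0.001 without line 3. Lrif1, a binding partner of SMCHD1, overlapped at 15.5, 14.04 and 13.96 CPM and 14.2, 11.8 and 11.1 CPM. Mat del was the lower within each line number, as for 16.6% of all genes. Wapl, the cohesin release factor, was at 278, 290 and 294 CPM and at 298, 322 and 380 CPM, and Smc3, a cohesin subunit, at 294, 321 and 303 CPM and at 328, 332 and 541 CPM, with mat del line 3 the highest in both.

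Genes of the 2-cell-like state, in which rare mESCs turn on genes of the early embryo, were near the limit of detection. Summed over the 28 genes in the table, they reached 1.152, 1.09 and 1.93 CPM in wt and 3.51, 3.34 and 0.459 CPM in mat del lines. Lines 1 and 2 of mat del were thus above and line 3 below all wt lines. Of 7 tested, 1 was higher (Tmem92, with 1, 7 and 3 counts in wt and 22, 36 and 7 counts in mat del lines) and 0 were lower. At such counts a gene can pass the filter through the group in which it is higher, as Tmem92 did, and 11 instead of 7 passed without line 3, so the order of the members that passed is not a result about the list. Zscan4c, a defining gene of this state, had 0, 12 and 1 counts in wt and 12, 3 and 1 counts in mat del lines, and Zscan4d had 1, 15 and 9 counts and 22, 14 and 0 counts.

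Lists of general cell functions are given beside 4.70% higher and 4.68% lower of all genes. Of 82 ribosomal protein genes 0 were higher and 5 lower (median -0.19, or -0.04 without line 3), and their sum was 64830, 59820 and 66320 CPM in wt and 62460, 59920 and 49360 CPM in mat del lines, the last being mat del line 3. The 13 mitochondrial genes summed to 18280, 20410 and 29340 CPM and to 18880, 17200 and 35080 CPM, high in both line 3 libraries, with 0 higher and 1 lower (median -0.04). Without line 3, 7 of the 13 were lower, beside 17.3% of all genes, and the median was -0.21. Of 18 cell cycle genes 0 were higher and 3 lower (16.7%, Ccna2, Cdk1 and Ccnb1, median -0.06), of 13 p53 targets 0 and 0 (median -0.01), of 15 rows of stress genes 2 higher, both of them the overlapping rows of Ddit3, and 0 lower (median 0.05), of 14 hypoxia targets 1 and 0 (median 0.11), of 17 cholesterol synthesis genes 2 and 0 (median 0.04) and of 40 histone genes 1 and 0 (median -0.12). Among 7 tested Y-linked genes, 0 were higher and 1 was lower (Eif2s3y, median -0.18). Over the 6 chromosome Y genes with a mean of at least 1 CPM, the median deviation was 0.34 in wt line 3 and -0.38 in mat del line 3. It was within 0.14 of 0 in the other lines. Solute carriers, collagens, keratins, olfactory receptors and homeobox genes outside the Hox clusters had 0 to 6.90% of their tested members higher and 0 to 6.90% lower.

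The state of these lines can be set beside the 45 libraries of the differentiation time course, taken as 1 set. With library totals alone as the scale, the summed naive factors were between 4440 and 4720 CPM in the 6 lines and between 339 and 2560 CPM in the time course. Klf4 was between 106 and 148 CPM against 0 to 49.2 CPM, and Prdm14 between 49.8 and 84.2 CPM against 0 to 7.82 CPM. Both genes were above the range of the time course in all lines of both genotypes. The summed canonical imprinted genes were the reverse, 2350 to 2530 CPM against 4910 to 12500 CPM. Dnmt3b was between 29.3 and 77.5 CPM in the 6 lines and above all of them in 43 of the 45 other libraries. Time course totals ran from 281284 to 103267407 counts, and the lowest value there was also 0 CPM for Pou5f1 and for the summed mitochondrial genes. A lower bound of 0 in the time course is thus not read here as absence of a transcript. Those values are labelled both log2 RPKM and raw read counts, and were taken as counts. Medium, read layout and depth differed between these sets as well, and their part in the differences cannot be told apart from that of the cell state.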

How the data were processed

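RNA of 6 mESC lines, 3 per genotype, was sequenced from polyA-selected libraries made with stranded or non-stranded TruSeq kits. Which kit made which library, and the strand setting of the counting, are not given in the sources used here, so overlapping and antisense genes cannot be told apart. Per the labels and the study's methods, the authors trimmed reads with Trim Galore 0.4.4, aligned them to GRCm38.p6 with HISAT2 2.0.5 and counted them in SeqMonk. The authors deposited raw counts per gene for 35591 genes, without normalization. Library totals were 27526359 to 126716460 counts, and precision was limited by the 3 lines per genotype rather than by depth, except for genes under about 1 CPM. Of the rows, 97 share a gene ID with another row, and were kept as they are.

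Samples were grouped by their labels. Counts were analysed in R 4.3.3 with edgeR 4.0.16 (filterByExpr, TMM, glmQLFit and glmQLFTest, Benjamini-Hochberg at 0.05), on the 6 lines alone. Fold changes are mat del over wt. SE is the log2 fold change divided by the square root of its F statistic. log2 CPM used a prior of 2 counts. Exon lengths and transcript GC content came from GENCODE M21 for 99.9% of genes, and promoters from RefSeq. DESeq2 1.42.0 and limma 3.58.1 gave alternatives. Other summaries used Python 3.11.15. The edgeR step was tested on simulated data. Tables of Hox genes and differentiation factors as log2 RPKM hold no 2i + LIF lines and were not used here.

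Named genes are Smchd1, Gemin5 and Magel2, examples of each list by level, p or role, the 12 higher and 12 lower genes with the lowest unadjusted p at a mean of 1 CPM or more whose lines do not overlap, genes among the 15 most variable or the 10 of highest level per length, and others marked as chosen after their values were seen. Some results that these rules would name are not reported here. The members, lists and tests were chosen with earlier results of these data known. The line numbers were checked for pairing: deviations from the genotype mean correlated between same-numbered lines at 0.165, 0.334 and 0.383 across genes (-0.422 to 0.239 between other numbers), so a fit with the line number as a replicate block was also run. Alternatives were RLE, upper-quartile and total-count scaling, other filters, DESeq2, the edgeR exact test, limma-voom, thinning to the smallest library, each line left out, and both line 3 libraries left out.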

Additional observations from a re-analysis of the deposited data

How the results depend on the processing

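The count of genes with an adjusted p under 0.05 was 0 under RLE, upper-quartile and total-count scaling, both other filters, DESeq2, limma-voom, thinning, the replicate block and each left-out line, 2 with the edgeR exact test and 3 without line 3 of both genotypes. At an unadjusted p under 0.05 the 397 genes became 730 with the line number as a replicate block (338 shared), 870 without line 3 of both genotypes (219 shared) and 231 to 639 with 1 line left out, where leaving out wt line 3 gave 231, mat del line 2 gave 248 and mat del line 1 gave 639. The block changed no adjusted call. Genes whose lines do not overlap numbered 2530 to 3850 with 1 line left out (1342 to 1972 higher, 1188 to 1908 lower) and 6334 without line 3 (3140 higher, 3194 lower), where fewer lines have to be in order. The log2 fold change of Smchd1 passed the adjusted threshold only without line 3, at -0.769. Medians of lists moved to -0.124 for ERK targets (at least 10 counts in every library), -0.048 for canonical imprinted genes (limma-voom), and, without line 3, 1.916 for 2-cell-like genes and 0.004 for hypoxia targets. With 1 line left out, medians ran from -0.033 to 0.047 for naive factors, -0.306 to 0.053 for formative markers, 0.083 to 0.157 for LIF and STAT3 genes, 0.028 to 0.336 for mesoderm, 0.038 to 0.37 for endoderm, -0.501 to 1.422 for 2-cell-like genes, -0.083 to 0.063 for canonical imprinted genes, 0.027 to 0.082 for Polycomb genes, -0.098 to -0.02 for SMN complex genes, -0.25 to 0.034 for Y-linked genes, 0.048 to 0.135 for hypoxia targets, 0.019 to 0.11 for cholesterol synthesis, -0.098 to -0.037 for the cell cycle and -0.33 to 0.068 for mitochondrial genes. Without line 3, the germline median turned from 0.08 to -0.08 and that of SMC proteins and partners fell from 0.12 to 0.001, and the sign of the core, canonical imprinted, p53, stress, Zfp, olfactory receptor, collagen and keratin medians turned as well. The sign of the naive, formative, 2-cell-like, canonical imprinted, Y-linked and mitochondrial medians thus rested on single lines. The cause of these changes was not tested. The distance between minus within genotypes was negative in every setting run, from -9.61 to -0.32. Leaving out line 3 of both genotypes was chosen after seeing the data. Depth limits genes under about 1 CPM, such as Magel2 and the 2-cell-like genes.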
